A study of Bos indicus with 6 samples.

Results

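The genes described are 8 products of the secretory epithelium of the cow oviduct, OVGP1, MUC1, MUC4, WFDC2, LCN2, PIGR, CLU and SPP1. They are 8 of the 24616 rows of a gene table from the isthmus, each found by its symbol, and each symbol stood on a single row. The set was chosen from the values of these same libraries, with the difference between the groups known, so the levels and group differences of the 8 genes are a description and carry no test.

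The cows were healthy multiparous Nelore (Bos indicus), and each gave 1 RNA-seq library from the isthmus on the side of the corpus luteum (CL), taken on day 4 after ovulation induced with a GnRH agonist. All had been presynchronized with 0.5 mg of cloprostenol, an analog of prostaglandin F (PGF), and with buserelin, a GnRH agonist, and then carried a progesterone (P4) device of 1 g and were given 2 mg of estradiol benzoate. The LF/LCL cows (large follicle, large CL, n = 3) also had PGF when the device went in, and their device came out 42 h before GnRH. The SF/SCL cows (small follicle, small CL, n = 3) had no PGF at that time, and their device came out 30 h before GnRH. When the device came out, PGF was given in both groups, with a repeat after 6 h. The sequenced cows were picked from the extremes of a ranking of the animals, so the groups are not random samples of their treatments, and PGF and device timing cannot be told apart. The comparison asks whether the hormonal setting around ovulation goes with different transcript levels in the isthmus.

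The oviduct lining is made of secretory and ciliated cells. Secretory cells release glycoproteins, protease inhibitors and defence proteins into the fluid that bathes gametes and the early embryo, and carry tall mucins on their surface. Estradiol is known to favour secretory activity and OVGP1 in the oviduct of several mammals, and progesterone to oppose it. The wall was sampled in its full thickness, so muscle, connective tissue and serosa are in each library with the epithelium.

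Values are read counts divided by the size factor of their library, called normalized counts here. Library totals ran from 23899117 to 34193164 reads. Counts were not divided by transcript length, so levels are compared between cows and not between genes. A log2 difference is SF/SCL minus LF/LCL of log2(normalized count + 1), with its standard error (SE). Each library is a separate cow, so spread between libraries is spread between animals.

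One library stood apart. Over the 15387 genes tested, the mean distance on the log2 scale from SF/SCL cow 489215 to the other SF/SCL cows was 175, and to the LF/LCL cows 151. SF/SCL cows 856 and 97 lay 68.8 from each other, and on average 105 and 96.4 from the LF/LCL cows. The distances between LF/LCL cows were 64.5 to 75.5. Cow 489215 also had the fewest genes with a read, 16944 against 17348 to 17718 in the other cows, and the smallest size factor, 0.751. Whether its tissue piece or its label differs from those of the other SF/SCL cows was not tested, and the SF/SCL means over 3 cows include it. The group differences of the 8 genes and the medians and calls of each list are therefore given with and without this library. Without it SF/SCL holds only cows 856 and 97, and because it was set aside for its values, the adjusted p-values of that fit depend on this choice.

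In limma over all 15387 genes of the 6 libraries, 0 genes passed a Benjamini-Hochberg adjusted p of 0.05 (0% of genes), the smallest adjusted p was 0.351, and 1333 genes had an unadjusted p under 0.05. edgeR called 0 genes and DESeq2 called 409. Without cow 489215, limma called 2827 of 15495 genes, 1600 higher in SF/SCL (10.3% of genes) and 1227 higher in LF/LCL (7.92%).

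Among the 8 genes, CLU and MUC4 were higher in every SF/SCL cow than in every LF/LCL cow, OVGP1 was far higher in SF/SCL cows 856 and 97 alone, and WFDC2 and MUC1 were highest in cow 489215. PIGR and SPP1 had group means close to each other for their spread, and LCN2 was lowest in SF/SCL cows 856 and 97. Cow 489215 was the highest of the 6 for 4 of the 8 genes and the lowest for 1, and over all genes tested it was the highest for 36.7% and the lowest for 35.7%. By log2 difference 7 of the 8 were higher in SF/SCL and 1, LCN2, was lower, with and without cow 489215. The count was 5 with library totals as scale, relative to epithelial markers, and without cow 527 or 97, and 6 with TMM or without cow 856. Groups did not overlap for 2 of the 8 genes, both higher in SF/SCL, against 9.51% of all genes tested, and for 0 with LF/LCL higher, against 8.6%. Without cow 489215 these were 4 genes higher in SF/SCL (OVGP1, CLU, SPP1 and MUC4) against 27.1% of genes, and 1 higher in LF/LCL (LCN2) against 24.9%. OVGP1 failed the filter without that cow too, so it is not among the genes behind these shares. Since the set was chosen on this contrast, nothing is read from these counts. The median log2 difference of the 8 genes was 0.857, or 0.611 without cow 489215, and that of all genes tested was -0.016 and -0.001. Of the 8 genes, 7 passed the filter on low and variable genes. OVGP1 failed it because its SD over the 6 libraries, 154445, exceeded its mean, 100283.

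**Figure D1:**
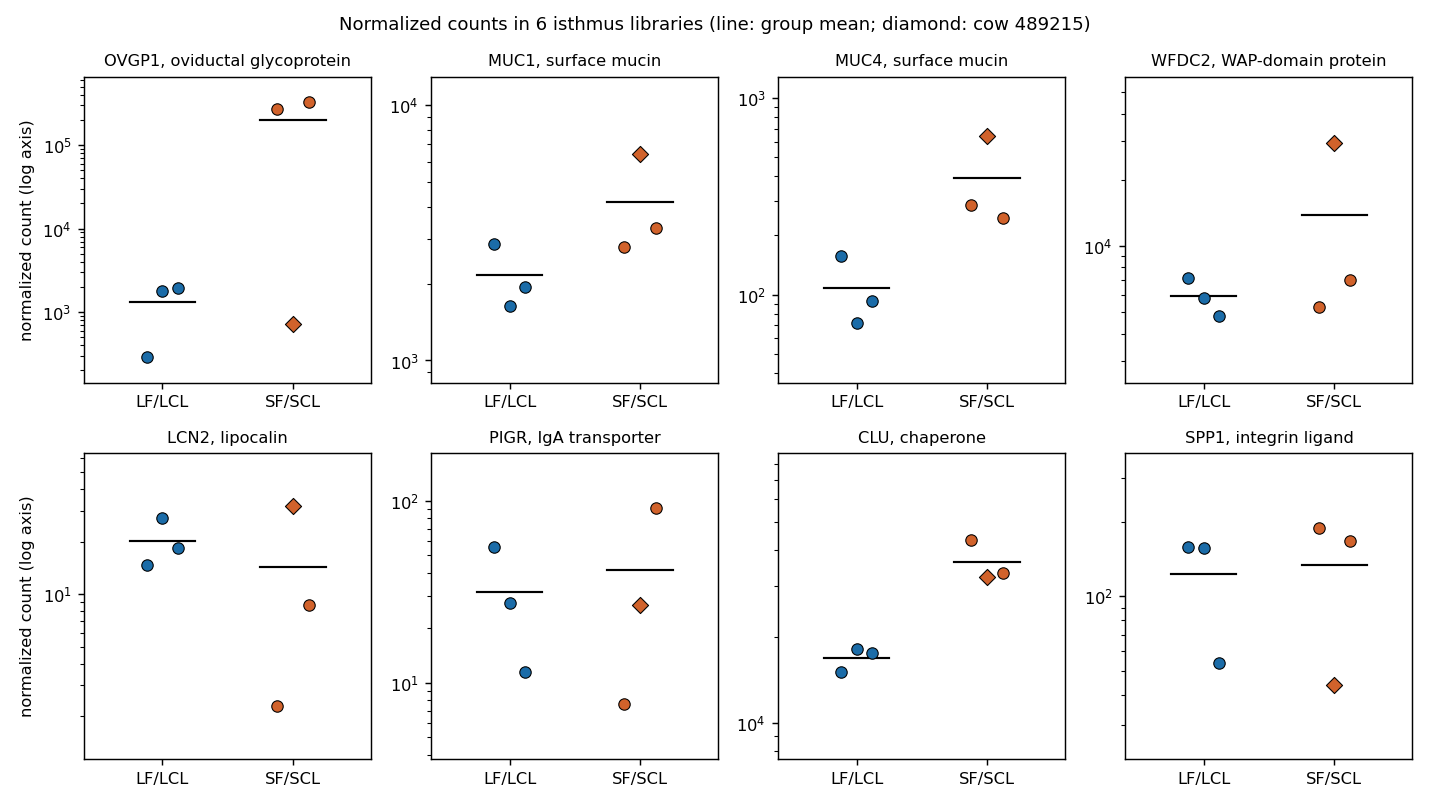
Normalized counts of the 8 genes on log axes, 1 point per cow and a line at each group mean, with LF/LCL in blue, SF/SCL in orange and cow 489215 as a diamond. The CLU and MUC4 points of the groups do not overlap, OVGP1 is at 271794 and 325158 in cows 856 and 97 and at 1950 or less elsewhere, and cow 489215 is the highest of the 6 for WFDC2, MUC1, MUC4 and LCN2.

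OVGP1 (ENSBTAG00000005973) encodes the oviductal glycoprotein, an estrogen-stimulated secretory product related to chitinases that binds to the zona pellucida. Its normalized counts were 286.8, 1782 and 1950 in LF/LCL cows 617, 79 and 527, and 271794, 729.6 and 325158 in SF/SCL cows 856, 489215 and 97. Cows 856 and 97 were above every other cow by far, and cow 489215 lay inside the LF/LCL range, so the groups overlapped. The gap between the highest and lowest of the 6 libraries was 1134-fold, and within LF/LCL it was 6.8-fold. In reads, OVGP1 was the gene with rank 1 in cows 856 and 97, where it took 1.05% (95% exact binomial confidence interval 1.04 to 1.05) and 1.26% (1.25 to 1.26) of all reads. It took 0.00215% (0.00197 to 0.00234) in cow 489215 and from 0.00107% to 0.00744% in the LF/LCL cows. These intervals cover counting error within a library only and not the spread between cows. The reads carry no molecular identifiers, so copies of a molecule were not told apart.

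The OVGP1 mean was 1340 ± 915.7 (SD, n = 3) in LF/LCL and 199227 ± 173962 (n = 3) in SF/SCL. The log2 difference was 5.33 (SE 3.03) over the 6 libraries and 8.21 (SE 0.909) without cow 489215. Among the 15922 genes with a mean above 5, this difference ranked 4 from the top, and 2 without cow 489215. The rank of its spread over the 6 libraries, from lowest to highest on the log2 scale, was 3. As the set was chosen on this contrast, the ranks are a description and nothing is read from them. In bulk tissue, fewer cells of a type and less RNA per cell cannot be told apart, for OVGP1 and for the genes that follow.

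The 5 genes with the pattern most like OVGP1, by Pearson r of log2 values over the 6 libraries among 11767 genes with a symbol and a mean of at least 100, were SNX10, C1orf222, FAM214A, IL16 and PNPT1. Their r ran from 0.988 to 0.995, and it rests on the split of cows 856 and 97 from the other cows. SNX10, a sorting nexin of endosomes, was at 70.1, 134.2 and 147.6 in LF/LCL and at 490.7, 113.2 and 525.6 in SF/SCL cows 856, 489215 and 97. IL16, a cytokine precursor, was at 165.4, 236.5 and 188.8 in LF/LCL and at 865.9, 186.4 and 904.9 in SF/SCL in the same order. Both genes had cow 489215 among the LF/LCL cows, and their largest log2 difference without that cow, 2.18, was well below that of OVGP1. Those of C1orf222, FAM214A and PNPT1 without that cow were smaller, at 0.687, 0.856 and 0.782.

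Of the chitinase-like relatives of OVGP1, 4 were on the table, 3 were tested, and 0 were called in the 6 libraries. Their median log2 difference was 0.030, and 0.490 without cow 489215, where limma called 1 of 3, higher in SF/SCL (10.3% of all genes). That gene was CHIA, acidic mammalian chitinase, singled out after its values were seen, at 8.4, 4.7 and 7.0 in LF/LCL and at 32.7, 0.0 and 21.7 in SF/SCL cows 856, 489215 and 97. CHIA had at most 43 reads in any library, and its limma Benjamini-Hochberg adjusted p without cow 489215 was 0.0487, just under the threshold. CHID1, a chitinase-domain protein and the relative with the highest mean, was at 2424, 2693 and 2364 in LF/LCL and at 2026, 3536 and 2293 in SF/SCL, so its groups overlapped. CHI3L2, also chosen after its values were seen, had 49.4 in cow 856, 135.5 in cow 97 and at most 1.0 in the other 4 cows. Like OVGP1, it failed the filter because its SD exceeded its mean.

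MUC1 and MUC4 encode membrane-bound mucins of the apical surface, and MUC4 binds the receptor ERBB2. MUC1 (ENSBTAG00000017104) was at 2866, 1639 and 1946 in LF/LCL cows 617, 79 and 527, and at 2782, 6421 and 3287 in SF/SCL cows 856, 489215 and 97. The groups overlapped by a narrow margin, with LF/LCL cow 617 just above SF/SCL cow 856, and cow 489215 was the highest. The means were 2150 ± 638.4 and 4163 ± 1972 (SD, n = 3 each). The log2 difference was 0.89 (SE 0.439), and 0.53 (SE 0.267) without cow 489215.

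MUC4 (ENSBTAG00000014721) was at 158.0, 71.33 and 93.1 in LF/LCL cows 617, 79 and 527, and at 284.8, 639.1 and 246.0 in SF/SCL cows 856, 489215 and 97. Every SF/SCL cow was above every LF/LCL cow, and cow 489215 was again the highest. The means were 107.5 ± 45.11 and 390.0 ± 216.6 (SD, n = 3 each), a ratio of 3.63. The log2 difference was 1.79 (SE 0.542), and 1.37 (SE 0.35) without cow 489215. MUC1 and MUC4 followed each other over the cows with an r of 0.958 over 6 libraries and 0.918 over 5.

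Of the other mucin genes, 8 were on the table and 3 were tested, with 0 called over the 6 libraries and a median log2 difference of 0.321, or -0.379 without cow 489215. With MUC16 and MUC12, which the filter on SD left out, the median over the 6 libraries was 0.893. MUC20, a membrane mucin, was at 300.4, 214.0 and 178.3 in LF/LCL and at 358.5, 587.1 and 351.1 in SF/SCL cows 856, 489215 and 97, with no overlap and cow 489215 highest. MUC5B, a secreted gel-forming mucin, was at 59.7, 74.2 and 60.6 in LF/LCL and at 2.3, 38.6 and 10.8 in SF/SCL, with LF/LCL higher in each cow. Against 7.92% of all genes, MUC5B was the 1 of 3 mucins called by limma without cow 489215 (log2 difference -3.39, Benjamini-Hochberg adjusted p 0.0142, and 0.496 with all 6 libraries).

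Among the mucins that failed the filter, MUC16 and MUC12 shared with OVGP1 the split of cows 856 and 97 from the other 4 cows. MUC16, the membrane mucin with the highest mean of the list, was at 271.1, 268.4 and 359.2 in LF/LCL and at 4052, 470.0 and 6906 in SF/SCL cows 856, 489215 and 97. The groups did not overlap, but cow 489215 was much nearer to LF/LCL. MUC12, chosen after its values were seen, was at 653.2 and 630.8 in cows 856 and 97, while the other 4 cows held a single read between them. Over the 6 libraries the r with OVGP1 was 0.963 for MUC16 and 0.979 for MUC12, against -0.021 for MUC1 and 0.209 for MUC4. MUC19 was at 0 in all 6 libraries.

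**Figure D2:**
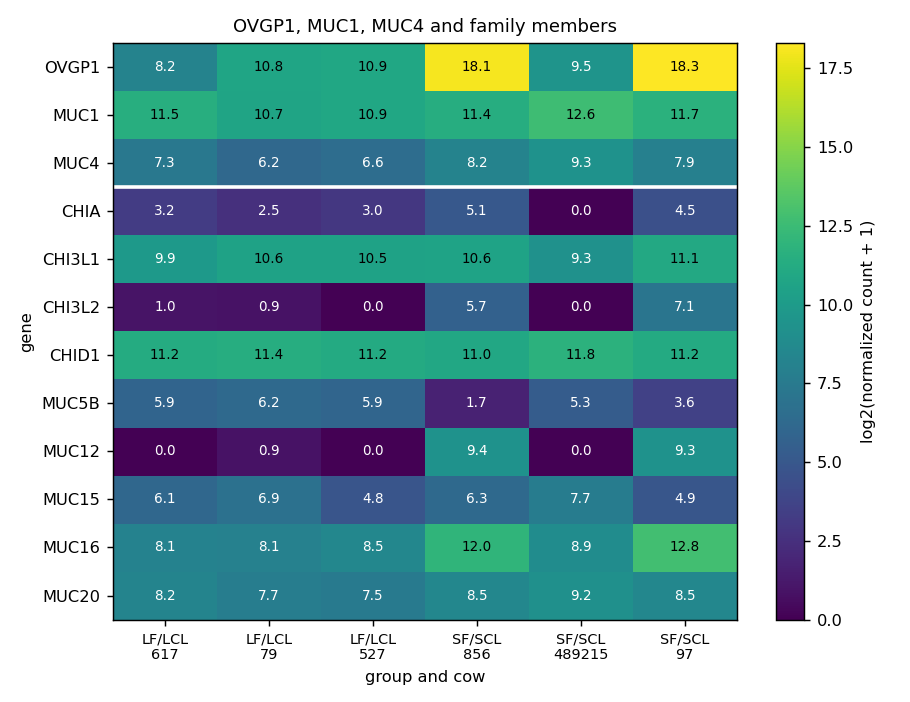
Log2(normalized count + 1) of OVGP1, MUC1 and MUC4 (above the white line) and of the chitinase-like and mucin genes with a mean above 5 (below it), with 1 column per cow. OVGP1, CHI3L2, MUC12 and MUC16 share high values in SF/SCL cows 856 and 97, whereas MUC1, MUC4 and MUC20 are highest in SF/SCL cow 489215.

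WFDC2 encodes a secreted protein with whey acidic protein (WAP) domains, a fold found in protease inhibitors. WFDC2 (ENSBTAG00000013928) was at 7166, 5786 and 4795 in LF/LCL cows 617, 79 and 527, and at 5296, 29355 and 7026 in SF/SCL cows 856, 489215 and 97. Cow 489215 alone was high, at 4.96 times the LF/LCL mean, and the other SF/SCL cows lay within the LF/LCL range. The means were 5916 ± 1191 and 13892 ± 13419 (SD, n = 3 each). The log2 difference of 0.82 (SE 0.783) became 0.06 (SE 0.264) without cow 489215.

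Of the other WAP-domain genes, 11 were on the table and 5 were tested, with 0 called over the 6 libraries and a median log2 difference of 0.110, or 0.278 without cow 489215, where 2 were called higher in SF/SCL (10.3% of all genes). WFIKKN1, a protease inhibitor that also binds growth factors, was at 46.1, 22.5 and 24.6 in LF/LCL and at 124.6, 54.6 and 82.4 in SF/SCL cows 856, 489215 and 97, with no overlap. PI3, the elastase inhibitor elafin and the relative with the highest mean, ranged from 259.8 in cow 856 to 4147 in cow 489215, with the LF/LCL cows between them. Like WFDC2, PI3 was highest in cow 489215. WFDC5, WFDC8 and WFDC10A were at 0 in all 6 libraries.

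LCN2 encodes a lipocalin that binds bacterial siderophores and withholds iron from microbes. LCN2 (ENSBTAG00000014149) was low in reads, with 14, 29 and 21 reads in LF/LCL cows 617, 79 and 527, and 3, 24 and 8 reads in SF/SCL cows 856, 489215 and 97. The normalized counts were 14.65, 27.22 and 18.45 in LF/LCL, and 2.279, 31.95 and 8.67 in SF/SCL in the same order. Cow 489215 was the highest of the 6 and cows 856 and 97 the lowest, so the groups overlapped. The log2 difference was -1.01 (SE 0.993), and -1.86 (SE 0.819) without cow 489215. Without cow 856 it was -0.198. The share of reads in cow 97, 3.35e-05% (95% interval 1.45e-05 to 6.6e-05), overlapped in its interval with that of LF/LCL cow 617, 5.46e-05% (2.98e-05 to 9.16e-05), as it did with that of cow 527, and that of cow 856 (1.81e-06 to 2.56e-05) lay below those of the LF/LCL cows. As for OVGP1, these intervals cover counting error only and not the spread between cows, so nothing about the groups is read from them.

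Of the other lipocalins, 13 were on the table and 5 were tested, with 0 called over the 6 libraries and a median log2 difference of -0.003, or -0.206 without cow 489215. APOD, a lipid carrier and the lipocalin with the highest mean, was at 4060, 5329 and 6193 in LF/LCL and at 4856, 4007 and 2755 in SF/SCL cows 856, 489215 and 97, with overlap. PTGDS, the lipocalin-type prostaglandin D synthase and the 1 of 5 lipocalins called without cow 489215 (higher in LF/LCL, 7.92% of all genes), was named after its values were seen. It was at 4534, 3805 and 2784 in LF/LCL and at 1445, 5340 and 1940 in SF/SCL. PTGDS shared with LCN2 the order of the SF/SCL cows, with cow 489215 above the LF/LCL cows and cows 856 and 97 below them. LCN1, LCN8, LCN10 and LGB were at 0 in all 6 libraries.

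PIGR encodes the receptor that carries polymeric IgA across the epithelium. PIGR (ENSBTAG00000019798) had 53, 29 and 13 reads in LF/LCL cows 617, 79 and 527, and 10, 20 and 84 reads in SF/SCL cows 856, 489215 and 97. The normalized counts were 55.47, 27.22 and 11.42 in LF/LCL, and 7.596, 26.63 and 91.04 in SF/SCL. Both the lowest and the highest value were in SF/SCL, so the LF/LCL range lay inside it. The log2 difference was 0.05 (SE 1.17), and 0.06 (SE 1.82) without cow 489215, with a 12-fold gap between the extreme cows. It turned to -0.514 without cow 527 and -0.812 without cow 97, and was 0.899 without cow 856. Its partner IGJ, the joining chain of polymeric IgA, was at 5553, 17087 and 12128 in LF/LCL and at 5401, 9829 and 8950 in SF/SCL. IGJ and the plasma cell gene MZB1 (209.3 to 403.6 over the 6 cows), both named after their values were seen, overlapped between groups.

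CLU encodes clusterin, a secreted chaperone. CLU (ENSBTAG00000005574) was at 15011, 18159 and 17497 in LF/LCL cows 617, 79 and 527, and at 43374, 32188 and 33341 in SF/SCL cows 856, 489215 and 97. The groups did not overlap, and here cow 489215 lay with its own group, next to cow 97. The means were 16889 ± 1660 and 36301 ± 6152 (SD, n = 3 each), a ratio of 2.15. The log2 difference was 1.10 (SE 0.16), and 1.18 (SE 0.208) without cow 489215, and over the 6 libraries its error was the smallest of the 8 genes relative to the difference. LRP2, an endocytic receptor of clusterin and LCN2, went the other way, at 9318, 13394 and 14466 in LF/LCL and at 1161, 3167 and 1331 in SF/SCL. Its groups did not overlap, and its log2 difference was -2.84 (SE 0.494), with a limma Benjamini-Hochberg adjusted p of 0.351. Without cow 489215 it was -3.29, with a limma Benjamini-Hochberg adjusted p of 0.00148 and both remaining SF/SCL cows below the 3 LF/LCL cows.

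SPP1 encodes osteopontin, a secreted ligand of integrins and CD44. SPP1 (ENSBTAG00000005260) was at 158.0, 156.8 and 53.58 in LF/LCL cows 617, 79 and 527, and at 189.1, 43.94 and 168.0 in SF/SCL cows 856, 489215 and 97. Each group had 1 low cow, 527 and 489215, and the other 4 cows lay between 156.8 and 189.1. The means were 122.8 ± 59.94 and 133.7 ± 78.44 (SD, n = 3 each), with a log2 difference of 0.03 (SE 0.841), and 0.69 (SE 0.519) without cow 489215. It turned to -0.487, -0.35 and -0.265 without cows 527, 856 and 97.

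**Figure D3:**
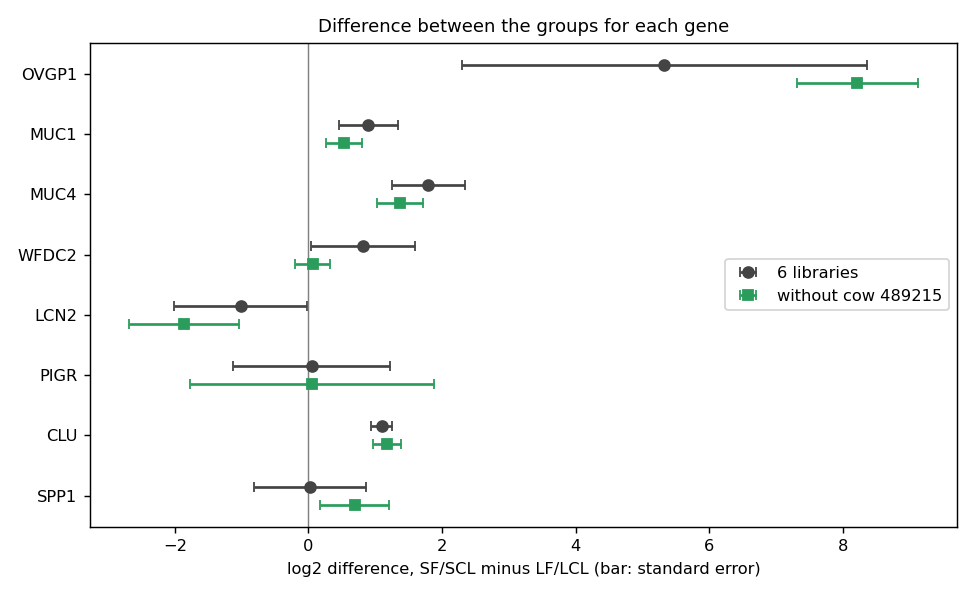
Log2 difference between SF/SCL and LF/LCL of the 8 genes, with bars of 1 SE, from all 6 libraries (grey circles) and without cow 489215 (green squares). OVGP1 moves from 5.33 to 8.21 and its error shrinks, and WFDC2 moves from 0.82 to 0.06. CLU is at 1.10 and 1.18, MUC4 at 1.79 and 1.37, and PIGR at 0.05 and 0.06 with wide bars.

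Of the list of receptors and partners of these proteins, 18 rows were on the table and 17 were tested. Over the 6 libraries 0 were called, 6 were higher in SF/SCL and 11 in LF/LCL, and the median log2 difference was -0.231. Without cow 489215, 3 were called higher in SF/SCL and 6 higher in LF/LCL, against 10.3% and 7.92% of all genes, with a median of -0.444. ITGB1, the integrin subunit with the highest mean, was at 72269, 91011 and 48534 in LF/LCL and at 40025, 62657 and 27906 in SF/SCL cows 856, 489215 and 97, with overlap. ITGA9, another integrin subunit that binds osteopontin, was at 1593, 1781 and 1033 in LF/LCL and at 913.8, 308.9 and 370.6 in SF/SCL, with no overlap. ERBB2, the partner of MUC4, named after its values were seen, was at 5046, 4127 and 4456 in LF/LCL and at 7313, 3569 and 7362 in SF/SCL. Cow 489215 had the lowest ERBB2 and the highest MUC4 of the 6. A row of LGALS3 was at 0 in all 6 libraries, and a different row of that symbol was expressed.

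Over the 28 pairs of the 8 genes, the r of log2 values over the 6 libraries was above 0 in 17 pairs, and in 19 over the 5 without cow 489215. These r are descriptions of few points that share their libraries and size factors. Over the 6 libraries the highest was MUC1 with MUC4, and WFDC2 joined them, with an r of 0.890 with MUC1 that was 0.605 over 5. Over the 5 libraries the highest was OVGP1 with CLU, at 0.971 against 0.763 over 6. OVGP1 ran opposite to LCN2, with -0.801 over 6 and -0.772 over 5. WFDC2 and PIGR went from 0.217 to 0.918 once cow 489215 was set aside. The genes thus did not vary as a single block over the cows.

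**Figure D4:**
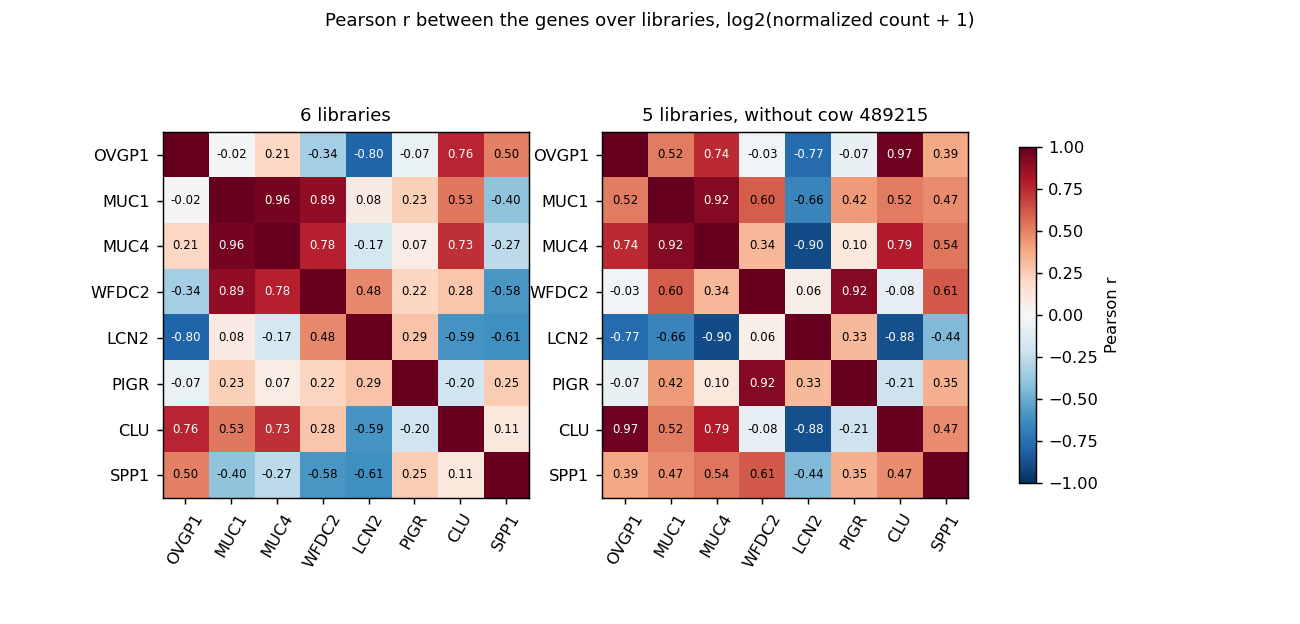
Pearson r between the 8 genes over the 6 libraries (left) and over the 5 without cow 489215 (right), from log2(normalized count + 1), on a colour scale from -1 to 1. MUC1 and MUC4 are at 0.96 and 0.92, OVGP1 and LCN2 are negative in both, and WFDC2 with PIGR changes from 0.22 to 0.92.

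The average pattern of the 8 genes, each scaled to mean 0 and SD 1, was -0.129, -0.322 and -0.656 in LF/LCL cows 617, 79 and 527, and 0.024, 0.584 and 0.499 in SF/SCL cows 856, 489215 and 97. Among the genes most like it were PKP2 and HES1, with r of 0.990 and 0.986 over the 6 libraries. HES1, a transcriptional target of Notch, was at 688.7, 683.3 and 432.1 in LF/LCL and at 872.8, 1441 and 1563 in SF/SCL. PKP2, a desmosome protein, was at 2802, 2592 and 2229 in LF/LCL and at 3368, 4595 and 4643 in SF/SCL. In both genes every SF/SCL cow was above every LF/LCL cow, with cow 856 the lowest of its group.

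The share of epithelium in the samples was looked at with 18 general epithelial markers, all 18 of them tested. Their summed normalized counts were 77563, 63506 and 57848 in LF/LCL cows 617, 79 and 527, and 85412, 116671 and 91855 in SF/SCL cows 856, 489215 and 97. Every SF/SCL sum was above every LF/LCL sum, and cow 489215 was the highest. Over all genes tested, cow 489215 also had the highest sum, 33743255 against 25207650 to 26801290 in the other cows. The sums of this and of the later lists are thus not shares of a library, and those of cow 489215 are raised by its small size factor. The mean log2 level of the same markers, in which each gene weighs the same, overlapped between groups, at 11.37, 11.06 and 10.89 in LF/LCL and at 11.23, 11.73 and 11.35 in SF/SCL, a difference of 0.33 (SE 0.205), or 0.19 (SE 0.151) without cow 489215. Over the 6 libraries 0 of the 18 were called and 8 did not overlap, all 8 higher in SF/SCL (9.51% of all genes tested), with a median log2 difference of 0.514. Without cow 489215 the median was 0.486, with 8 called higher in SF/SCL (10.3% of all genes) and 2 higher in LF/LCL (7.92%). By log2 difference over the 6 libraries, 14 of the 18 were higher in SF/SCL and 4 in LF/LCL. These 4, named after their values were seen, were RAB25 (-0.945), ELF3 (-0.542), ST14 (-0.124) and CLDN4 (-0.067). Without cow 489215, RAB25 was at -1.711 and ST14 at -0.439, and these were the 2 called higher in LF/LCL. SPINT2, a protease inhibitor and the marker with the highest mean, was at 14530, 13982 and 13612 in LF/LCL and at 20421, 23139 and 20338 in SF/SCL. The adhesion protein EPCAM was at 12286, 9925 and 8530 in LF/LCL and at 15871, 20313 and 18854 in SF/SCL, and the tight junction protein CLDN7 did not overlap either. None of the 18 was at 0 in all libraries.

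Set against the mean log2 level of these 18 markers in the same library, 5 of the 8 genes were higher in SF/SCL over the 6 libraries (OVGP1, MUC1, MUC4, WFDC2 and CLU), and the direction of WFDC2 and SPP1 turned without cow 489215. OVGP1 kept a log2 difference of 4.99 (SE 3.21), or 8.03 (SE 1.03) without cow 489215. MUC4 had 1.46 (SE 0.381), or 1.19 (SE 0.294), and CLU 0.76 (SE 0.344), or 0.99 (SE 0.329). In this relative measure MUC4 still did not overlap, at -4.05, -4.88 and -4.33 in LF/LCL and at -3.07, -2.41 and -3.40 in SF/SCL cows 856, 489215 and 97. CLU was at 2.51, 3.09 and 3.20 in LF/LCL and at 4.17, 3.25 and 3.68 in SF/SCL, so cow 489215 was only just above LF/LCL cow 527. WFDC2 was at 3.11 in cow 489215 and between 1.14 and 1.44 in the other 5 cows, with a log2 difference of 0.49 (SE 0.616), or -0.12 (SE 0.15) without cow 489215. MUC1 had 0.56 (SE 0.268), or 0.35 (SE 0.166). PIGR, SPP1 and LCN2 were lower in SF/SCL on this scale over the 6 libraries, at -0.28 (SE 1.09), -0.31 (SE 0.915) and -1.34 (SE 0.886). Without cow 489215 they were at -0.13 (SE 1.73), 0.51 (SE 0.438) and -2.05 (SE 0.798). Scaling to a marker mean shifts all genes, and the median log2 difference of the genes tested was -0.347 on this scale. With library totals in place of size factors that median was -0.105.

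Ciliated cell markers followed another course. Of the 18 tested, 0 were called over the 6 libraries, 16 were higher in SF/SCL and 5 did not overlap, all 5 higher in SF/SCL (9.51% of all genes tested), with a median log2 difference of 0.588. Without cow 489215, limma called 16 of 18 higher in SF/SCL (10.3% of all genes), and the median was 1.05. Without cow 856 it was 0.365. Their sums were 63332, 58710 and 49558 in LF/LCL and 95845, 56611 and 101023 in SF/SCL cows 856, 489215 and 97, so that cow 489215 lay within the LF/LCL range. By mean log2 level of the same markers, cow 489215 was the lowest of the 6, at 10.50 against 10.62 to 10.91 in LF/LCL and 11.81 and 11.78 in cows 856 and 97. CAPS, a calcium-binding protein of ciliated cells and the marker with the highest mean, overlapped between groups and ran from 16551 to 21404. DNAI1, a dynein of the ciliary axoneme, was at 588.2, 474.9 and 510.3 in LF/LCL and at 1621, 782.8 and 1328 in SF/SCL, and the ciliary tip gene SNTN did not overlap either. PIFO was at 0 in all 6 libraries.

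Markers of non-ciliated oviduct epithelium beyond the 8 genes went in both directions. Of 19 rows, 13 were tested and 0 were called over the 6 libraries, with 7 higher in SF/SCL and 6 in LF/LCL and a median log2 difference of 0.063, or 0.114 without cow 489215. In that fit, of 14 tested, 2 were called higher in SF/SCL (10.3% of all genes) and 3 higher in LF/LCL (7.92%). Their sums were 23484, 24082 and 24810 in LF/LCL and 25352, 35968 and 23420 in SF/SCL cows 856, 489215 and 97. KRT7, a keratin of simple glandular epithelia, was at 2341, 1218 and 743.1 in LF/LCL and at 3423, 5507 and 3742 in SF/SCL, and the tetraspanin TSPAN1 also did not overlap, with SF/SCL higher. The folate receptor FOLR1, on the row with the highest mean, was at 3419, 7687 and 7789 in LF/LCL and at 907.7, 10405 and 1735 in SF/SCL. PAX8, a transcription factor of the oviduct secretory lineage named after its values were seen, was at 662.5, 503.1 and 539.3 in LF/LCL and at 1441, 468.6 and 1437 in SF/SCL. PAX8 was high in cows 856 and 97, like OVGP1, and below the LF/LCL range in cow 489215, whereas FOLR1 was low in cows 856 and 97 and highest in cow 489215. The label of secretory epithelium thus has its markers in these libraries, but PIGR and LCN2 had at most 84 and 29 reads in any library, and CLU and SPP1 are also made by other cell types.

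Markers of the muscle and connective tissue of the wall had negative median differences. All 12 smooth muscle markers tested were higher in LF/LCL by log2 difference (median -0.537, or -1.0 without cow 489215), with 0 called over 6 libraries and 9 called without that cow, against 7.92% of all genes. The median was -0.214 without cow 856. Their sums were 955344, 884355 and 834165 in LF/LCL and 390244, 1291696 and 451185 in SF/SCL cows 856, 489215 and 97. These sums put cows 856 and 97 below every LF/LCL cow and cow 489215 above them. The mean log2 level of the same markers, at 15.10, 14.99 and 15.04 in LF/LCL and at 14.01, 15.05 and 14.18 in SF/SCL, put cow 489215 inside the LF/LCL range. ACTA2, smooth muscle actin and the marker with the highest mean, was at 311661, 309608 and 229408 in LF/LCL and at 102587, 533926 and 106962 in SF/SCL, while the intermediate filament protein SYNM and the actin-binding SYNPO2 were lower in all 3 SF/SCL cows. All 12 fibroblast markers were also higher in LF/LCL (median -0.852, or -0.983 without cow 489215), with 0 called over 6 libraries and 9 without that cow, against the same 7.92%. Their sums were 423322, 544039 and 515406 in LF/LCL and 212739, 322409 and 225967 in SF/SCL. The collagen genes COL3A1, which had the highest mean, COL1A1 and COL1A2 did not overlap. No smooth muscle or fibroblast marker was at 0 in all libraries. The part of tissue make-up in the levels of the 8 genes was not tested.

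**Figure D5:**
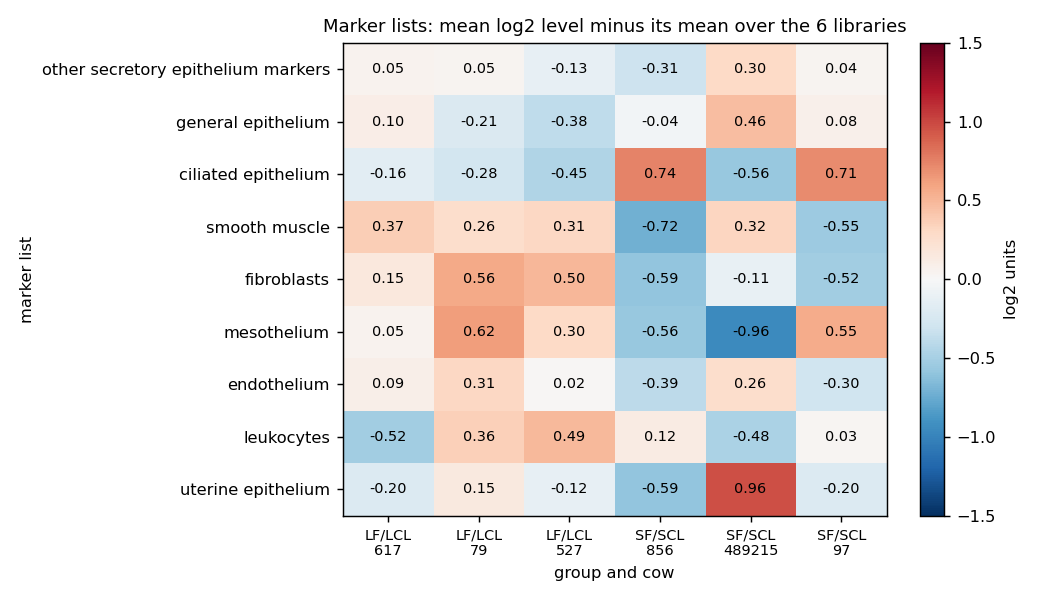
Mean log2 level of each cell type marker list in each library, minus its mean over the 6 libraries. SF/SCL cows 856 and 97 are high for ciliated markers (0.74 and 0.71) and low for smooth muscle (-0.72 and -0.55) and fibroblast markers, and cow 489215 is high for general and uterine epithelium (0.46 and 0.96).

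Endothelial and leukocyte markers had medians nearer to 0 than those of muscle and connective tissue. Of 9 endothelial markers, 0 were called over the 6 libraries and 4 without cow 489215, all 4 higher in LF/LCL (7.92% of all genes), with medians of -0.267 and -0.497. The median was -0.174, -0.162 and -0.158 without cows 79, 856 and 97. Their sums ran from 12333 in cow 856 to 19220 in LF/LCL cow 79, VWF had the highest mean, and the cadherin CDH5 was lower in all 3 SF/SCL cows. Of 13 leukocyte markers tested, 0 were called with or without cow 489215, with medians of -0.251 and 0.034. Their sums were 2768, 4559 and 4959 in LF/LCL and 4112, 3241 and 3789 in SF/SCL. CSF1R, the macrophage receptor, had the highest mean. The T cell gene CD2 was the 1 of 13 that did not overlap, with SF/SCL higher (9.51% of all genes tested). Other T cell genes, named after their values were seen, overlapped between groups. Their log2 differences were -0.404 for CD3D, -0.251 for CD8A and 0.381 for CD3E.

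The isthmus meets the uterine horn, and the summed level of uterine epithelium genes was highest in cow 489215. Of 7 rows 5 were tested, with 0 called over 6 libraries and medians of -0.580 (-0.247 with the filter on the mean alone, -0.106 and -0.157 without cows 856 and 97) and, without cow 489215, -0.693, where 1 was called higher in SF/SCL (10.3% of all genes) and 2 higher in LF/LCL (7.92%). Their sums were 7681, 7899 and 9466 in LF/LCL and 4702, 13886 and 5644 in SF/SCL cows 856, 489215 and 97. The transporter SLC1A1 had the highest mean and overlapped between groups. The homeobox gene HOXA10, a marker of uterine identity named after its values were seen, was at 2094, 2451 and 2178 in LF/LCL and at 670.7, 5991 and 719.6 in SF/SCL. HOXA10 was thus highest in cow 489215, lowest in cows 856 and 97, and opposite to OVGP1, with an r of -0.870. The list did not follow HOXA10 as a whole. The ligand IHH had the same order, but MSX2 had an r with OVGP1 of 0.881. MSX2 was at 37.7, 42.2 and 19.3 in LF/LCL and at 129.9, 37.3 and 147.4 in SF/SCL. FOXA2, at 255.6 in cow 489215, lay there within the LF/LCL range of 178.3 to 464.7. IHH, MSX2 and FOXA2 were also named after their values were seen. HOXA13 was at 0 in all 6 libraries. The part of these genes in the levels of the 8 described was not tested.

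Receptors of the sex steroids, which act on OVGP1 and other secretory genes, were listed because the cows were set up to differ in hormones. Of 6 receptors tested 0 were called over the 6 libraries and 2 higher in SF/SCL without cow 489215 (10.3% of all genes), with medians of -0.009 and 0.573. Their sums were 14523, 13385 and 13676 in LF/LCL and 30461, 16163 and 27454 in SF/SCL cows 856, 489215 and 97. The estrogen receptor ESR1 was at 3571, 3572 and 3834 in LF/LCL and at 7235, 608.4 and 8211 in SF/SCL, so cows 856 and 97 were the highest and cow 489215 the lowest of the 6. Its log2 difference was -0.14 (SE 1.22) over the 6 libraries, with a limma Benjamini-Hochberg adjusted p of 0.977. Without cow 489215 it was 1.07 (SE 0.097), with a limma Benjamini-Hochberg adjusted p of 0.00247 and both SF/SCL cows above the 3 LF/LCL cows.

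ESR2, the other estrogen receptor, was at 449.0, 285.3 and 636.8 in LF/LCL and at 560.6, 66.6 and 293.7 in SF/SCL, with overlap. The progesterone receptor PGR was at 333.9, 309.7 and 356.6 in LF/LCL and at 367.6, 382.1 and 553.8 in SF/SCL, with a narrow gap between the groups. PGRMC1, a membrane component tied to progesterone binding and the gene with the highest mean here, was at 6986, 5780 and 5190 in LF/LCL and at 18585, 11134 and 14707 in SF/SCL, with no overlap and a log2 difference of 1.29 (SE 0.248), or 1.48 (SE 0.21) without cow 489215. In ESR1, ESR2 and OVGP1, cow 489215 was lower than cows 856 and 97, and the part of receptor levels in OVGP1 was not tested.

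Other proteins of mucosal defence and oviduct fluid showed both directions. Of 33 rows 20 were tested and 0 were called over the 6 libraries, with 7 higher in SF/SCL and 13 in LF/LCL and a median log2 difference of -0.241. Without cow 489215, of 21 tested, 2 were called higher in SF/SCL (10.3% of all genes) and 6 higher in LF/LCL (7.92%), and the median was 0.129. AZGP1, a secreted zinc-binding glycoprotein and the gene with the highest mean, was at 6968, 9505 and 10021 in LF/LCL and at 27046, 13867 and 25627 in SF/SCL cows 856, 489215 and 97, with no overlap, as for CLU. Its log2 difference was 1.28 (SE 0.35), or 1.59 (SE 0.168) without cow 489215. Transferrin (TF), an iron carrier, was at 162.2, 156.8 and 140.5 in LF/LCL and at 32.7, 37.3 and 32.5 in SF/SCL, with little spread in either group. Complement factor B (CFB) was at 3027, 2895 and 3411 in LF/LCL and at 401.1, 969.2 and 989.5 in SF/SCL. TF and CFB, with LF/LCL higher and no overlap, each had a limma Benjamini-Hochberg adjusted p of 0.351 over the 6 libraries, with log2 differences of -2.13 (SE 0.088) and -2.09 (SE 0.434). Without cow 489215 these were -2.20 and -2.30, with limma Benjamini-Hochberg adjusted p of 0.00402 and 0.009 and both SF/SCL cows below the 3 LF/LCL cows. The antimicrobial peptide gene TAP was at 0 in all 6 libraries.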

How the data were processed

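Isthmus RNA of 6 cows, 3 LF/LCL and 3 SF/SCL, was sequenced with 1 library per cow. The authors aligned reads with TopHat2 2.0.8 and Bowtie2 2.1.0, counted them per gene with HTSeq and divided them by DESeq 1.12.1 size factors. The deposited signal values are these quotients. Strand use in counting is not stated. Reads were recovered from the step between values of a library, and 100% of 147696 values were whole within 0.01 reads, giving 23899117 to 34193164 reads per library.

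Groups were taken from the sample titles. limma 3.58.1 (R 4.3.3, trend and robust) was fitted without covariates to log2(value + 1) of genes whose mean exceeded 5 and their SD (15387 of 24616), with Benjamini-Hochberg adjustment over all. As alternatives, edgeR 4.0.16 (TMM or DESeq2 size factors) and DESeq2 1.42.0 on recovered reads called 0, 0 and 409 genes. Other pseudocounts (0.5 and 5), filters and scalings, and leaving out each cow, were also tried. The code was tested on simulated data. No pairing or batch was named for the isthmus libraries.

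Gene names are those of the table (19971 rows with a symbol, of which 2979 share one). Genes named by rule were the 8 genes, the gene with the highest mean in each list, up to 2 further genes without overlap, markers at 0, ESR1, ESR2 and PGR, and genes among the 5 most like OVGP1 or the average pattern. Other genes were named after their values were seen, and this is said where each appears. The 8 genes and all lists were chosen with earlier results of these data known. List genes absent by symbol were not analysed here.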

Additional observations from a re-analysis of the deposited data

How the results depend on the processing

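The log2 differences of OVGP1, WFDC2, MUC1, MUC4, CLU and LCN2 kept their direction in each of 14 alternatives, but their size moved. Leaving out 1 cow at a time, they ran from 3.816 to 8.215 for OVGP1, from 0.064 to 1.299 for WFDC2, from 0.532 to 1.135 for MUC1, from 1.372 to 2.11 for MUC4, from 0.961 to 1.176 for CLU and from -1.863 to -0.198 for LCN2. With both changes at once, relative to epithelial markers and without cow 489215, the difference of WFDC2 turned to -0.121. As log2 of the ratio of group means, the difference was 7.216 for OVGP1, 1.232 for WFDC2, -0.492 for LCN2 and 0.412 for PIGR. The edgeR and DESeq2 fits gave -0.575 and -0.521 for LCN2, and 0.385 and 0.412 for PIGR. The near-zero differences of PIGR and SPP1 turned negative when scaled to library totals (-0.039 and -0.062) or to epithelial markers (-0.283 and -0.306), and that of SPP1 with TMM (-0.002). Leaving out 1 cow at a time, they ran from -0.812 to 0.899 for PIGR and from -0.487 to 0.691 for SPP1, and the genes called by limma ran from 0 to 2827, the latter only without cow 489215. DESeq2 called 409 genes over the 6 libraries. The cause was not tested.

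Of the 16 lists, the medians of 8 changed sign when 1 cow was left out. They ran from -0.177 to 0.490 for chitinase-like relatives, from -0.379 to 1.017 for other mucins, from -0.204 to 0.664 for WAP-domain genes (-0.199 with the filter on the mean alone), and from -0.223 to 0.120 for lipocalins. They ran from -0.343 to 0.129 for mucosal defence, from -0.032 to 0.359 for other secretory markers, from -0.476 to 0.034 for leukocytes and from -0.315 to 0.573 for sex steroid receptors. Depth limits PIGR and LCN2, with at most 84 and 29 reads in a library. With 3 cows against 3, an exact permutation test cannot give a p below 0.1.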

Other observations

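Genes that mark the serosal mesothelium in many tissues split in these libraries. MSLN (mesothelin, the binding partner of MUC16) was at 808.0, 872.9 and 1871 in LF/LCL cows 617, 79 and 527, and at 17590, 2299 and 18098 in SF/SCL cows 856, 489215 and 97. WT1, a transcription factor named after its values were seen, was at 1269, 1302 and 1180 in LF/LCL and at 8611, 1037 and 7984 in SF/SCL. Both shared with OVGP1 and MUC16 the high values of cows 856 and 97, with an r with OVGP1 of 0.952 and 0.971, and both failed the filter over the 6 libraries because their SD exceeded their mean. BNC1 and PRG4, of the same list, were instead lower in all 3 SF/SCL cows, with BNC1 at 68.0, 97.6 and 73.8 in LF/LCL and at 23.5, 16.0 and 19.5 in SF/SCL. LRRN4, also named after its values were seen, failed the filter over the 6 libraries and was lower in all 3 SF/SCL cows too. It was at 282.6, 412.1 and 174.8 in LF/LCL and at 3.8, 5.3 and 16.3 in SF/SCL, a log2 difference of -5.09 (SE 0.665). Of 7 rows of this list 2, BNC1 and PRG4, were tested and 0 called over the 6 libraries (median -1.84, without MSLN, WT1 and LRRN4). Without cow 489215, 4 rows passed the filter, WT1 among them. limma called 1 of these, WT1, higher in SF/SCL (10.3% of all genes) and 3 higher in LF/LCL (7.92%), with a median over the 4 of -1.99. The median was -0.801 over the 6 libraries with the filter on the mean alone, and -1.07 and -0.824 without LF/LCL cows 617 and 527. The list sums, mostly from MSLN and WT1, were 2684, 3230 and 3730 in LF/LCL and 26307, 3625 and 26824 in SF/SCL.

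TFF3, a trefoil peptide of mucous epithelia, and IHH, the Indian hedgehog ligand, had the reverse order. They were named after their values were seen. TFF3 was at 8352, 6526 and 7414 in LF/LCL and at 1162, 13632 and 1293 in SF/SCL cows 856, 489215 and 97, with an r with OVGP1 of -0.967. IHH was at 1225, 1973 and 2478 in LF/LCL and at 101.8, 3300 and 403.2 in SF/SCL. Cow 489215 was the highest of the 6 for both, and cows 856 and 97 were the lowest.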
